A study of Mus musculus with 4 samples.

Results

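Integrin subunit transcripts were followed in the murine colon carcinoma line MC38 after CRISPR-Cas9 disruption of Mgat5 and in its controls. The rule named 10 subunit genes (Itga1, Itga2, Itga3, Itga4, Itga5, Itga6, Itgav, Itgb1, Itgb3 and Itgb5) and took the probe set that the platform annotation gives for each. Of these, 9 were measured, 1 probe set each, among 19505 named genes on the Clariom S mouse array; Itga1 is not analysed here. The tested cells were Mgat5 knockout clone 1 and clone 2, and the controls were cells with an empty vector (MOCK) and untransfected cells (WT), with 1 array per sample and n = 2 arrays per group. The titles name both knockout samples as clones and neither control as one, so effects of cloning and of Mgat5 loss cannot be told apart. A cell label on all 4 samples names the knockout, controls included, and the titles and design text were followed instead. Within each group the 2 arrays are of different cells, clone 1 and clone 2 or MOCK and WT. The p-values thus measure the spread between those cells together with any technical spread. They do not measure the spread between repeats of the same cells. No label says whether arrays came from separate cultures.

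Integrins are cell-surface receptors made of an alpha and a beta subunit, which bind matrix proteins outside the cell and connect to actin inside it. The beta 1 subunit pairs with most alpha subunits measured here, the alpha v subunit pairs with beta 3 and beta 5 as well as beta 1, and the pairing sets the ligand. Both chains carry many N-glycans, and the enzyme made from Mgat5 adds the beta-1,6 branch on which lactosamine chains that galectins bind are built. The array measured transcripts, not glycans or surface protein.

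The values were log2 signals that the authors had normalized, yet their distributions differed between arrays. Over 22206 probe sets, the 99th percentile was 15.8 in clone 1, 15.8 in clone 2, 15.9 in MOCK and 14.7 in WT. The median difference over all probe sets, knockout minus control, was 0.18 log2 units as deposited and -0.02 after quantile normalization, so each member is given on both scales. The median of the features marked as negative controls ran from 5.12 to 5.22 over the arrays, and a signal below its array's median is called below background. Mgat5 itself stood at 7.46 in clone 1 and 7.57 in clone 2, against 8.19 in MOCK and 8.27 in WT, and this difference did not pass limma (adjusted p = 0.631), and the position of its probes is not known here. Of 10 epithelial markers, 0 were above background on all 4 arrays. Below it on every array were 8 of them, including Epcam and Cdh1. Krt8 was above background on 3 arrays and Vil1 on 2. Of 7 mesenchymal markers, 6 were above background on every array, Vim, Cdh2 and Snai2 among them. All 4 endothelial markers and 7 of 9 leukocyte markers were below background on every array. The summed log2 level of the 9 leukocyte markers was 37.2 in clone 1, 40.7 in clone 2, 40.7 in MOCK and 39.3 in WT. After quantile normalization it was 37.6, 39.8, 40.5 and 40.1 in the same order. As 7 of the 9 lay below background, this sum is no measure of leukocyte content.

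Sequence before the start sites is shown for the 4 members on which the results turn, namely Itga5 and Itgb5, whose clones lay above the controls, Itga3, which split each group, and Itgb1, the common partner chain. RefSeq windows of assembly GRCm38.p6 were found for 8 of the 10 genes, with none for Itga6 or Itgb3. Each line gives the 250 bases before a start site, 5′ to 3′ on the gene's strand. Capitals mark matches, on either strand, to 5 motifs, a GC box (GGGCGG), an AP-1 site (TGANTCA), a TEAD site (GGAATG), an E-box (CAGGTG) and a TATA box (TATAAA). The windows lie at chr15:103366792-103367041 (minus strand) for Itga5, chr16:33829415-33829664 (plus) for Itgb5, chr11:95076715-95076964 and chr11:95069199-95069448 (both minus) for the upstream and downstream starts of Itga3, and chr8:128685404-128685653 (plus) for Itgb1.
Itga5: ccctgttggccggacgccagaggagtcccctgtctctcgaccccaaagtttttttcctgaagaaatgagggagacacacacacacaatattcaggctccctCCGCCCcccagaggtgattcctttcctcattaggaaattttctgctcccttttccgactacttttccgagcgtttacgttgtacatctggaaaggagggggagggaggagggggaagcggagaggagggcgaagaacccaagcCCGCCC
Itgb5: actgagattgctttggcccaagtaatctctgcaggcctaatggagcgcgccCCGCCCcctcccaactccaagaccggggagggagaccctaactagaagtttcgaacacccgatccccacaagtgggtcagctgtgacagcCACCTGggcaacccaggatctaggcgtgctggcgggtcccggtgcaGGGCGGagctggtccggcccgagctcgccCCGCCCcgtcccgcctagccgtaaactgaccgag
Itga3 upstream start: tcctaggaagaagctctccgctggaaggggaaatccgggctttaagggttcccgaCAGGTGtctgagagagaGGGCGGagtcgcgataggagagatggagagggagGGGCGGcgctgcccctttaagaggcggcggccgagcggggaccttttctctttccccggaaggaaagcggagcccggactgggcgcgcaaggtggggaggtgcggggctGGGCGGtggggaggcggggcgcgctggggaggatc
Itga3 downstream start: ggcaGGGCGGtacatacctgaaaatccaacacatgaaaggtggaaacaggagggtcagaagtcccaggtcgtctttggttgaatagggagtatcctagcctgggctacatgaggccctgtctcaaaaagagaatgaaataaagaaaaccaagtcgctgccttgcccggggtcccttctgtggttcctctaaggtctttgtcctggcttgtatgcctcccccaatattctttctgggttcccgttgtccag
Itgb1: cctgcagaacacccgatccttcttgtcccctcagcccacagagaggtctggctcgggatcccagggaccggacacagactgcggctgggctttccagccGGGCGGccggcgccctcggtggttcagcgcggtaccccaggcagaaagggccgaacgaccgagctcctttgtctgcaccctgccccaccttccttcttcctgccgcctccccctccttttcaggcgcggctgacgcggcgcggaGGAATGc

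The GC box was found 2 times before Itga5, 3 times before Itgb5, 3 times before the upstream start of Itga3, 1 time before its downstream start and 1 time before Itgb1. Over all 32851 RefSeq windows of this length, 32.7% held it. The E-box was found before Itgb5 and before the upstream start of Itga3, and 17.2% of all windows held one. The TEAD match, in 12.6% of all windows, lay before Itgb1, where it begins 7 bases before the start. None of the printed windows held the AP-1 or the TATA letters, which occurred in 6.75% and 12.4% of all windows, and matches of different motifs did not overlap. G and C made up 55.6% of the Itga5 window, 65.2% of that of Itgb5, 67.6% of the upstream and 50.8% of the downstream window of Itga3, and 68.0% of that of Itgb1, beside a median of 52.4% over all windows. A match describes these letters and is not evidence of binding.

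None of the measured integrin subunits passed the test, a count of 0 of 9 by limma at an adjusted p under 0.05, where 0.0405% of all probe sets were called as deposited and 0.0045% after quantile normalization. At an unadjusted p under 0.05, 3 of the 9 passed as deposited, Itga5, Itga6 and Itgb5, and 1 of the 9 after quantile normalization, Itga5, against 8.75% and 8.92% of all probe sets. As deposited, 8 of the 9 were higher in the knockout mean, where 65.1% of all probe sets were, and after quantile normalization 6 of 9, where 48.3% were. The median difference over the 9 was 0.65 log2 units as deposited and 0.29 after quantile normalization, beside 0.18 and -0.02 over all probe sets. As deposited, the median probe set signal was near background, from 5.34 to 5.62 over the arrays. The 75th percentile was 9.39 in clone 1 and 9.60 in clone 2, against 9.26 in MOCK and 8.87 in WT. The members were not compared with genes of like signal. Both clones lay above both controls for 4 members as deposited (Itga5, Itga6, Itgb3 and Itgb5), where 27.8% of all probe sets did, and for 3 after quantile normalization (Itga5, Itgb3 and Itgb5), where 19.2% did. Both clones lay below both controls for 1 member, Itga2, on both scales, where 11.7% and 21.3% of all probe sets did. In RNA from whole cultures, fewer cells that carry a transcript and less of it per cell cannot be told apart.

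**Figure D1:**
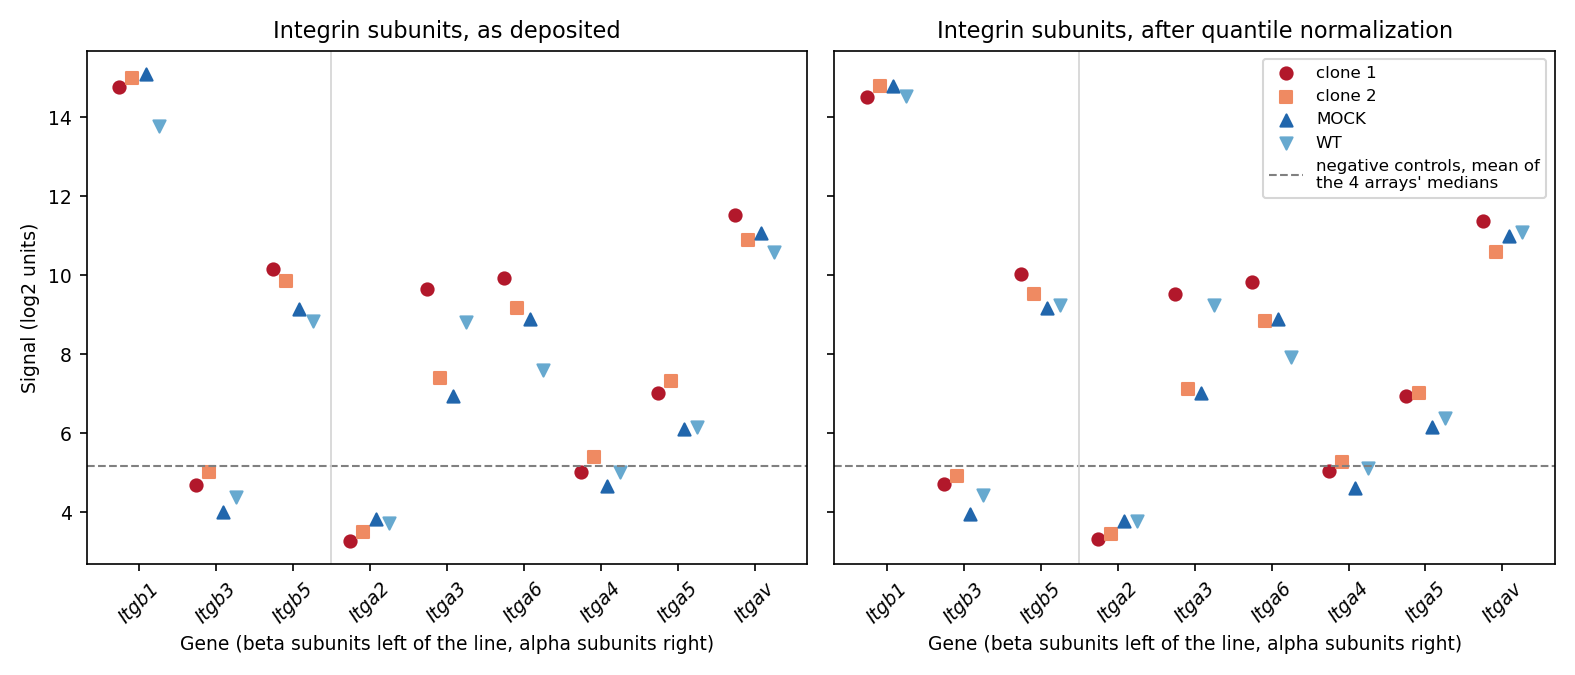
Log2 signal of the 9 measured integrin subunit genes on each array (red circle clone 1, orange square clone 2, dark blue triangle MOCK, light blue inverted triangle WT), as deposited on the left and after quantile normalization on the right. The dashed line is the mean over the 4 arrays of the negative-control median. Itga5 and Itgb5 show both clones above both controls on both scales, Itga3 has clone 1 and WT above clone 2 and MOCK, and Itga2 and Itgb3 lie below the line on every array.

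Among the beta chains, Itgb1 encodes the subunit shared by the collagen, laminin and fibronectin receptors. Its signal was 14.77 in clone 1 and 14.99 in clone 2, against 15.10 in MOCK and 13.79 in WT. The WT array alone stood low, and both clones lay between the controls. The knockout mean of 14.88 ± 0.16 was 0.43 log2 units above the control mean of 14.45 ± 0.92 (SD, n = 2 per group), which did not pass limma (SE 0.47, adjusted p = 0.829). After quantile normalization the values were 14.52 in clone 1 and 14.79 in clone 2, against 14.79 in MOCK and 14.55 in WT. The difference was then -0.02 log2 units, with a 95% interval from -0.73 to 0.69 (limma adjusted p = 0.990, with 0.560 to 1 under the alternatives). The distance between MOCK and WT was 1.31 as deposited and 0.24 after quantile normalization, and without the WT array the difference of Itgb1 as deposited was -0.22.

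Itgb5 encodes the beta 5 chain, which pairs with alpha v to bind vitronectin. Its signal was 10.16 in clone 1 and 9.84 in clone 2, against 9.14 in MOCK and 8.84 in WT. Both clones were high and the groups did not overlap. The knockout mean of 10.00 ± 0.22 was 2.01-fold the control mean of 8.99 ± 0.22 (SD, n = 2 per group), a difference of 1.01 log2 units with an SE of 0.38 that did not pass limma (adjusted p = 0.482). After quantile normalization the values were 10.03 and 9.54 in clone 1 and clone 2, against 9.17 and 9.25 in MOCK and WT. The groups were still apart, with clone 2 nearest to the controls, and the fold was 1.49 (difference 0.58 log2 units, 95% interval -0.16 to 1.31, limma adjusted p = 0.636, and 0.345 to 1 over the alternatives). Without clone 1 the quantile-normalized difference of Itgb5 was 0.32. Itgb3, the beta chain of the alpha v receptor that is also found on platelets, was below background on every array. It read 4.67 in clone 1 and 5.01 in clone 2, against 3.99 in MOCK and 4.38 in WT, and no fold is given.

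Of the laminin-binding alpha chains, Itga6 encodes the alpha 6 subunit, which pairs with beta 1 or beta 4. Its signal was 9.94 in clone 1 and 9.16 in clone 2, against 8.88 in MOCK and 7.60 in WT. The clones were higher, and the gap between clone 2 and MOCK was 0.28 log2 units. The knockout mean of 9.55 ± 0.55 was 2.48-fold the control mean of 8.24 ± 0.91 (SD, n = 2 per group), a difference of 1.31 log2 units with an SE of 0.49 (limma adjusted p = 0.482). After quantile normalization Itga6 read 9.83 in clone 1 and 8.85 in clone 2, against 8.90 in MOCK and 7.94 in WT. Clone 2 was then just below MOCK and the groups overlapped. The difference was 0.92 log2 units on that scale, with a 95% interval from -0.12 to 1.96 (limma adjusted p = 0.598, and 0.157 to 1 over the alternatives), beside a distance of 0.96 between MOCK and WT. Without the WT array the deposited difference of Itga6 was 0.67. After quantile normalization it was 0.42 without clone 1, 0.45 without WT, 1.39 without MOCK and 1.40 without clone 2.

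Itga3 encodes the alpha 3 subunit, which pairs with beta 1 in a laminin receptor of epithelial cells. Its signal was 9.66 in clone 1 and 7.40 in clone 2, against 6.94 in MOCK and 8.82 in WT. Clone 1 and WT were high and clone 2 and MOCK were low, so the spread within each group was wider than the distance between the groups. The knockout mean of 8.53 ± 1.60 was 0.65 log2 units above the control mean of 7.88 ± 1.33 (SD, n = 2 per group), which did not pass limma (SE 0.74, adjusted p = 0.841). Clone 1 stood 2.26 log2 units above clone 2, and MOCK minus WT was -1.88. The difference was -0.29 without the MOCK array and -0.48 without clone 1. The same order held after quantile normalization, at 9.53 in clone 1 and 7.12 in clone 2, against 7.01 in MOCK and 9.24 in WT (difference 0.21 log2 units, 95% interval -1.80 to 2.21, limma adjusted p = 0.962, and 0.332 to 1 over the alternatives). Of the 9 members, Itga3 was the 1 that differed by at least 1 log2 unit between clone 2 and clone 1, as did 12.7% of all probe sets as deposited and 11.3% after quantile normalization. MOCK differed from WT by that much for 3 members as deposited (Itga3, Itga6 and Itgb1), where 10.1% of all probe sets did, and for 1, Itga3, after quantile normalization, where 4.52% did.

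Itga3 also had the widest range of the 9 members after quantile normalization, 2.52 log2 units. Of 19504 other named genes, the 3 with the nearest pattern over the 4 arrays were Flot2, Adam3 and Rnf128, with root mean square distances of 0.24, 0.25 and 0.27 log2 units between values centred on each gene's mean. Flot2, which encodes the membrane scaffold protein flotillin 2, had deposited signals of 9.18 in clone 1 and 7.61 in clone 2, against 6.85 in MOCK and 8.80 in WT. Rnf128, which encodes a ubiquitin ligase, read 7.55 in clone 1 and 5.97 in clone 2, against 5.36 in MOCK and 7.12 in WT. Adam3, of the ADAM family of membrane proteins, read 6.53 in clone 1 and 4.16 in clone 2, against 3.88 in MOCK and 5.44 in WT, so it was below background in clone 2 and MOCK. With 4 arrays such likeness is a description only.

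**Figure D2:**
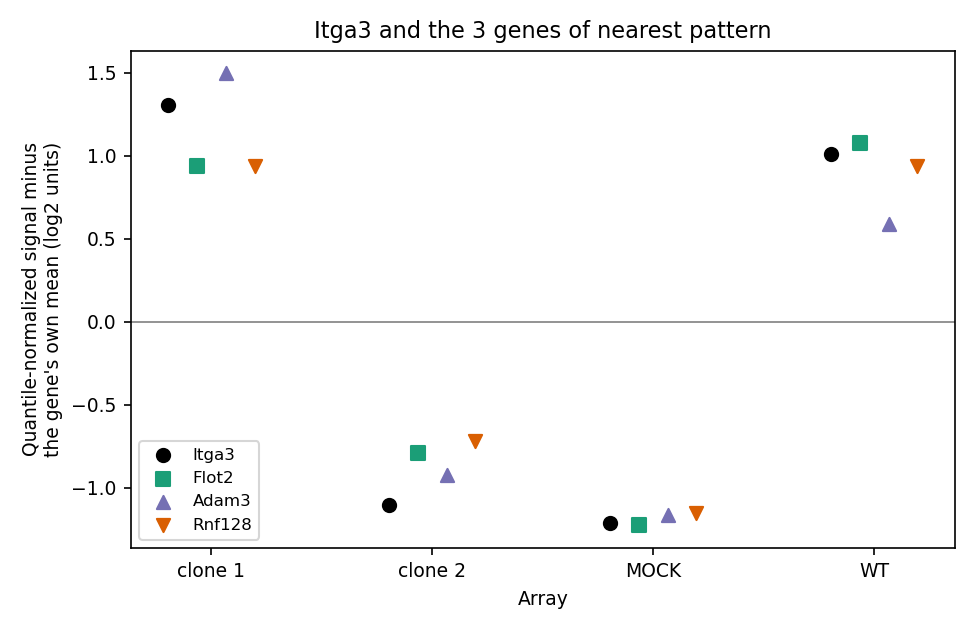
Quantile-normalized log2 signal of Itga3 (black circles) and of the 3 genes of nearest pattern, Flot2 (green squares), Adam3 (purple triangles) and Rnf128 (orange inverted triangles), each minus its own mean over the 4 arrays. For all 4 genes clone 1 and WT lie above 0 and clone 2 and MOCK below it.

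Among the alpha chains that bind fibronectin and vitronectin, Itga5 encodes the alpha 5 subunit of the main fibronectin receptor, with beta 1. Its signal was 7.02 in clone 1 and 7.31 in clone 2, against 6.10 in MOCK and 6.16 in WT. Both clones were high, the controls were close together, and the gap between the groups was 0.86 log2 units. The knockout mean of 7.17 ± 0.20 was 2.05-fold the control mean of 6.13 ± 0.05 (SD, n = 2 per group), a difference of 1.04 log2 units with an SE of 0.37 that did not pass limma (adjusted p = 0.459). After quantile normalization Itga5 read 6.95 in clone 1 and 7.03 in clone 2, against 6.15 in MOCK and 6.39 in WT. The groups did not overlap on this scale, and the fold was 1.65 (difference 0.72 log2 units, 95% interval 0.03 to 1.41, unadjusted p = 0.0438 and adjusted p = 0.543 by limma, and adjusted p from 0.297 to 1 over the alternatives). Both controls lay above the median of the negative controls but below their 75th percentile, which was 6.56 in MOCK and 6.29 in WT.

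Itgav encodes the alpha v subunit, the partner of beta 1, beta 3 and beta 5. Its signal was 11.54 in clone 1 and 10.89 in clone 2, against 11.06 in MOCK and 10.59 in WT. Clone 1 was highest, and clone 2 lay between the controls. The difference between the means was 0.39 log2 units as deposited (SE 0.41, limma adjusted p = 0.823). After quantile normalization the values were 11.39 in clone 1 and 10.60 in clone 2, against 11.00 in MOCK and 11.09 in WT. Clone 1 then lay above both controls and clone 2 below both, with a mean difference of -0.05 log2 units and a 95% interval from -0.87 to 0.77 (limma adjusted p = 0.978, and 0.593 to 1 over the alternatives). For Itgb5, the beta chain with which alpha v forms a vitronectin receptor, both clones lay above both controls on this scale.

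Itga4, which encodes the alpha 4 subunit that binds fibronectin and VCAM-1 and is best known from leukocytes, was above background on 1 array. It read 5.003 in clone 1 and 5.40 in clone 2, against 4.65 in MOCK and 5.01 in WT. Itga2, which encodes the alpha 2 subunit of a collagen receptor, was below background on every array, at 3.27 in clone 1 and 3.50 in clone 2, against 3.82 in MOCK and 3.72 in WT. No fold is given for Itga4 or Itga2. Of the 9 measured members, 6 were thus above background on all arrays, namely Itgb1, Itgb5, Itga3, Itga5, Itga6 and Itgav.

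**Figure D3:**
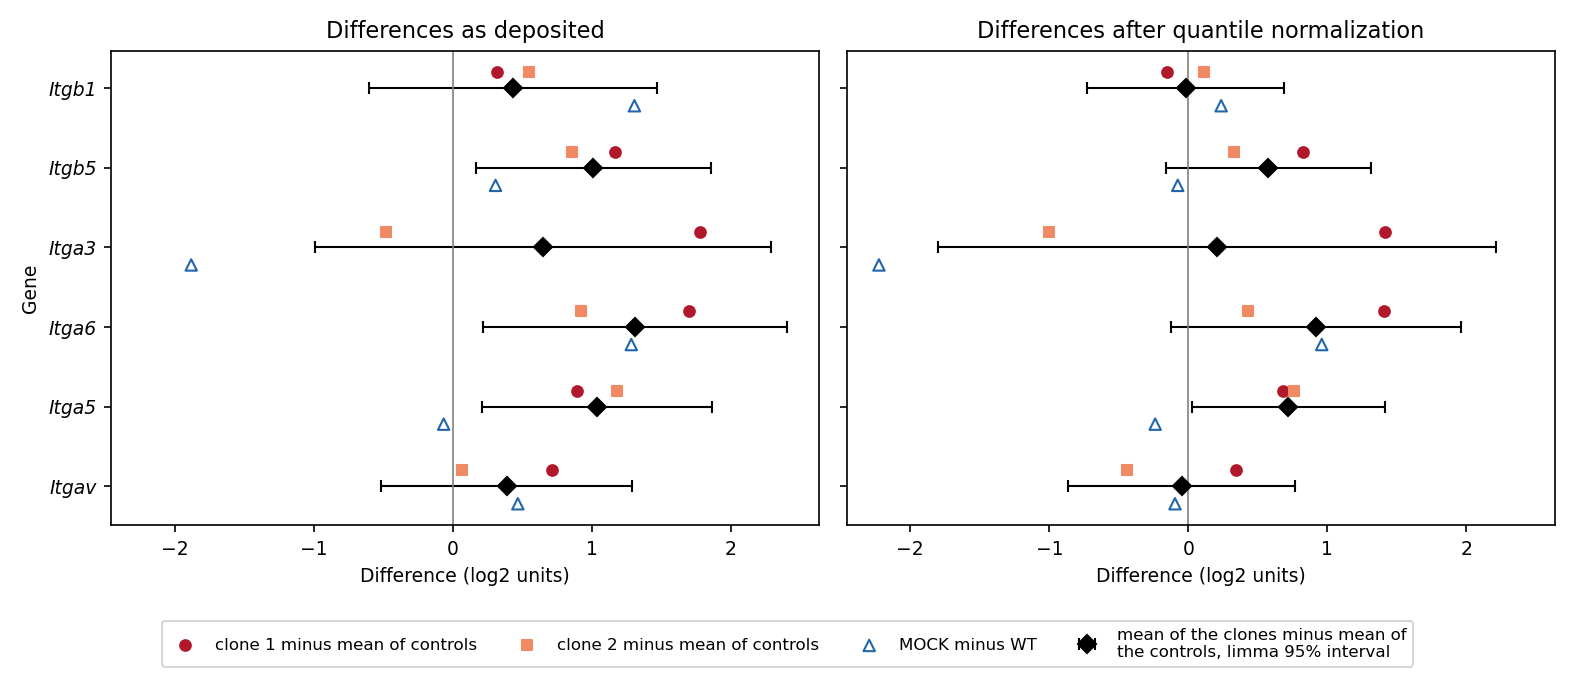
Differences in log2 units for the 6 integrin subunits above background on every array, as deposited on the left and after quantile normalization on the right. Black diamonds with bars are the mean of the clones minus the mean of the controls with the limma 95% interval, filled symbols are clone 1 (red circle) and clone 2 (orange square) minus the mean of the controls, and open triangles are MOCK minus WT. Itga5 and Itgb5 have both clones right of 0 and a small distance between the controls, and for Itga3 the distance between the controls, -1.88 as deposited, is larger than the difference between the groups.

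The clones can be set beside each other for these members, each from 1 array and with no test. Relative to the mean of the controls, as deposited, Itga5 was 0.89 log2 units higher in clone 1 and 1.18 higher in clone 2, and Itgb5 by 1.17 in clone 1 and 0.85 in clone 2. Itga6 was higher by 1.70 in clone 1 and 0.92 in clone 2. For Itga3 the differences from the control mean were 1.78 in clone 1 and -0.48 in clone 2. At least 1 log2 unit above the control mean stood 3 of the 9 members in clone 1 (Itga3, Itga6 and Itgb5) and 1 in clone 2 (Itga5), where 6.31% and 11.8% of all probe sets did. On the quantile-normalized scale 2 members did so in clone 1 (Itga3 and Itga6) and 0 in clone 2, where 3.94% and 5.41% of all probe sets did. There the differences from the control mean were 0.68 and 0.76 in clone 1 and clone 2 for Itga5, 0.82 and 0.33 for Itgb5, and 1.41 and 0.43 for Itga6. On both scales Itga6 and Itgb5 thus stood farther above the controls in clone 1 than in clone 2, and Itga5 farther in clone 2. For Itga5 the clones were 0.29 log2 units apart as deposited and 0.08 after quantile normalization, and for Itgb5 0.31 and 0.50.

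The other integrin chains differed in whether they were detected. Of 16 further alpha and beta genes 15 were measured, 5 were above background on all arrays (Itga2b, Itgb4, Itgb6, Itgb7 and Itgb8), and 7 were below it on every array. Itgb7 and Itgb8 were above the 75th percentile of the negative controls on all 4 arrays. Itga2b, Itgb4 and Itgb6 were above it on 0 arrays, so their signals were near background. Of the 15, 0 passed limma on either scale, and at an unadjusted p under 0.05 the count was 0 as deposited and 2 after quantile normalization, beside 8.75% and 8.92% of all probe sets. Those 2, Itgae and Itgb2, were below background on every array. In the knockout mean 9 of the 15 were higher as deposited and 6 after quantile normalization, beside 65.1% and 48.3% of all probe sets. Both clones lay below both controls for 4 and 5, beside 11.7% and 21.3%, and above both for 2 and 2, beside 27.8% and 19.2%. The median differences were 0.04 and -0.14 log2 units. Itgb8, whose product pairs with alpha v and activates latent TGF-beta, read 6.75 in clone 1 and 6.49 in clone 2, against 6.91 in MOCK and 6.92 in WT. Both clones were lower, by 0.29 log2 units in the mean as deposited and 0.63 after quantile normalization (limma adjusted p = 0.862 and 0.604). Itgb4, the partner of alpha 6 in hemidesmosomes, read 5.49 in clone 1 and 5.69 in clone 2, against 5.27 in MOCK and 5.84 in WT, with overlapping groups. Itgb6, an epithelial partner of alpha v, read 6.14 in clone 1 and 5.92 in clone 2, against 5.58 in MOCK and 6.12 in WT. Itgb7, a leukocyte beta chain, stayed within 7.02 and 7.15 on all 4 arrays as deposited, and Itga2b, the platelet alpha chain, within 5.56 and 6.42. After quantile normalization Itgb7 read 6.96 in clone 1 and 6.74 in clone 2, against 7.10 in MOCK and 7.48 in WT. Both clones then lay below both controls, with a difference of -0.44 log2 units (limma adjusted p = 0.707). Itgb2, the leukocyte beta chain, was below background on every array.

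Genes of the adhesion plaque, which links the integrin tail to actin, were more often higher than lower in the clones. Of 25 listed genes 24 were measured and 20 were above background on all arrays. Of the 24, 21 were higher in the knockout mean as deposited and 18 after quantile normalization, beside the 65.1% and 48.3% of all probe sets. Both clones lay above both controls for 14 as deposited and 11 after quantile normalization, beside 27.8% and 19.2% of all probe sets, and below both for 0 and 2, beside 11.7% and 21.3%. The median difference was 0.67 log2 units as deposited and 0.34 after quantile normalization. Beside it, the median of MOCK minus WT over the 24 was 0.58 as deposited and -0.02 after quantile normalization. Like the members, neither these genes nor those of the other lists were compared with genes of like signal. By limma 0 of the 24 passed at an adjusted p under 0.05 on either scale, and 7 as deposited and 3 after quantile normalization had an unadjusted p under 0.05, beside 8.75% and 8.92% of all probe sets. With trended, robust eBayes 1 of the 24 was called, Tns1 (limma adjusted p = 0.0177), where 340 of 22206 probe sets were. Leaving out clone 1 sets clone 2 alone against the controls. The differences of Zyx and Csrp1 were then 2.28 and 2.20 log2 units as deposited, and 1.78 and 1.66 after quantile normalization.

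Tns1, which encodes the adaptor tensin 1 that binds beta integrin tails, read 9.82 in clone 1 and 9.35 in clone 2, against 7.51 in MOCK and 7.99 in WT. The groups did not overlap on either scale, with a difference of 1.83 log2 units as deposited (SE 0.40, limma adjusted p = 0.171) and 1.42 after quantile normalization (limma adjusted p = 0.412). Zyx, which encodes the actin-binding plaque protein zyxin, read 9.30 in clone 1 and 10.56 in clone 2, against 8.34 in MOCK and 8.21 in WT. Clone 2 stood highest, and the difference was 1.66 log2 units as deposited and 1.24 after quantile normalization (limma adjusted p = 0.321 and 0.489). Tln1 encodes talin 1, which binds the beta tail and switches integrins on, and read 14.92 in clone 1 and 14.55 in clone 2, against 13.77 in MOCK and 13.09 in WT. Its groups did not overlap, with a difference of 1.31 log2 units as deposited and 0.83 after quantile normalization (limma adjusted p = 0.369 and 0.526). Csrp1, a LIM protein of actin bundles, read 11.76 in clone 1 and 13.46 in clone 2, against 11.10 in MOCK and 11.43 in WT, and after quantile normalization clone 1 lay between the controls.

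**Figure D4:**
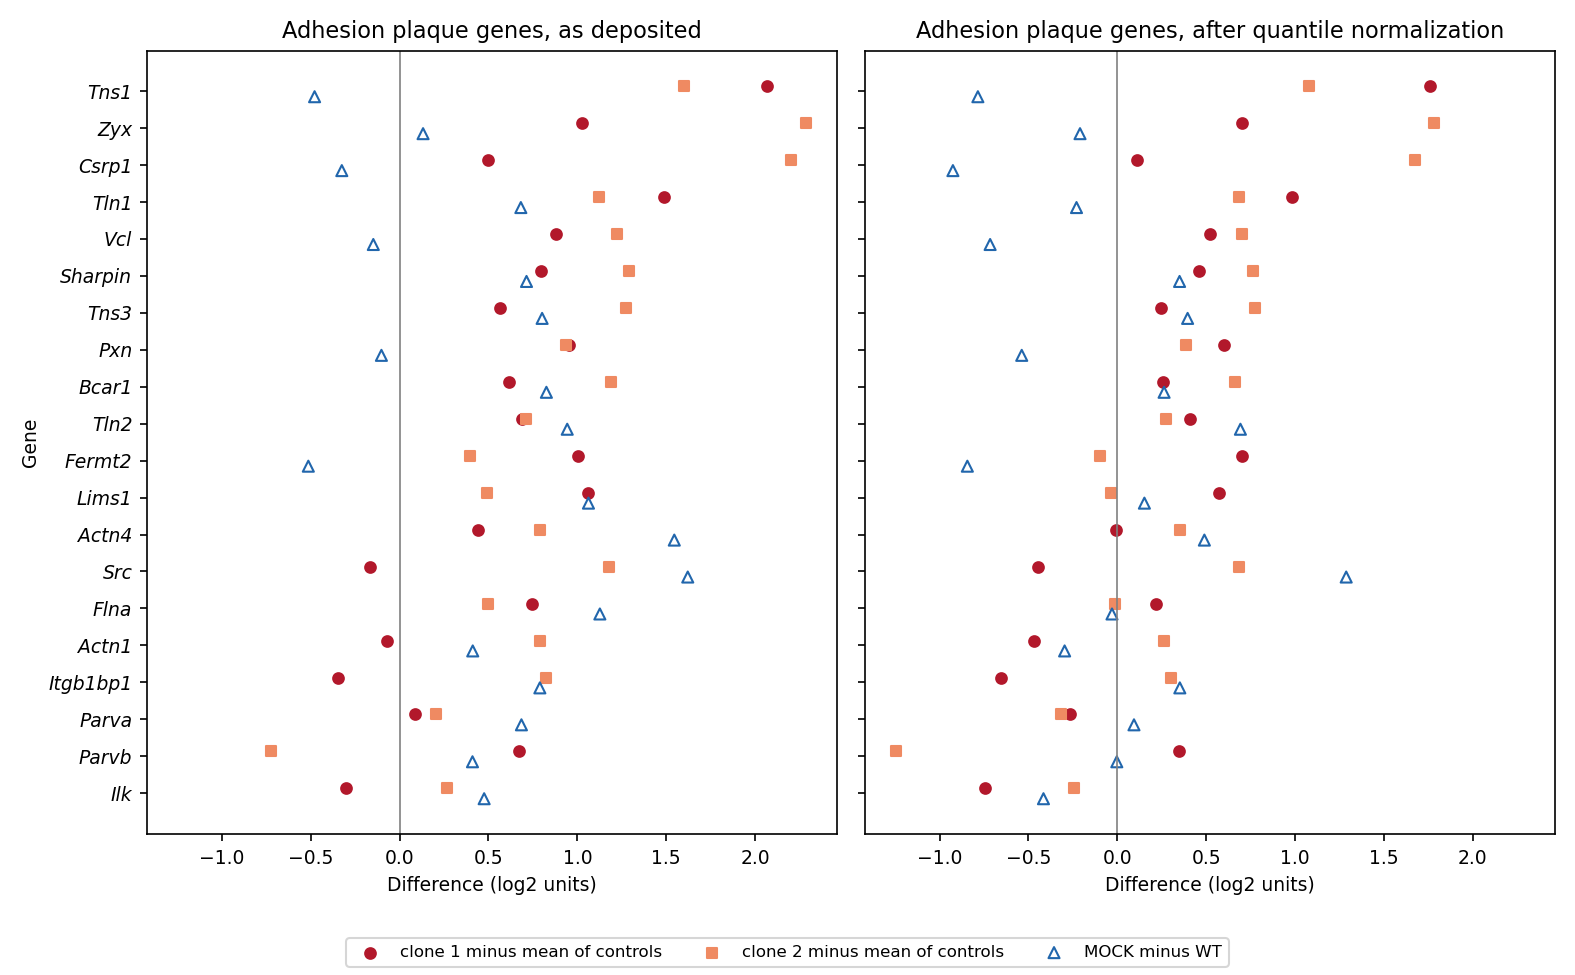
Differences in log2 units for the 20 adhesion plaque genes above background on every array, ordered by the knockout minus control difference after quantile normalization, as deposited on the left and quantile-normalized on the right. Filled symbols are clone 1 (red circle) and clone 2 (orange square) minus the mean of the controls and open triangles are MOCK minus WT. Tns1, Zyx and Tln1 have both clones well right of 0 on both scales, and most open triangles move left after quantile normalization.

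Among membrane proteins that travel with integrins, 0 of 10 passed limma on either scale. All 10 were measured and above background on every array, and 9 were higher in the knockout mean as deposited and 6 after quantile normalization, beside 65.1% and 48.3% of all probe sets. At an unadjusted p under 0.05 the count was 0 as deposited and 1 after quantile normalization, beside 8.75% and 8.92% of all probe sets. That 1 was Cav1, which encodes the caveolar protein caveolin 1 and was the single lower gene as deposited. Cav1 read 8.16 in clone 1 and 8.17 in clone 2, against 9.01 in MOCK and 8.37 in WT, a difference of -0.52 log2 units as deposited and -0.92 after quantile normalization (limma adjusted p = 0.746 and 0.495). Slc3a2, the heavy chain of CD98, which binds beta integrin tails, read 16.97 in clone 1 and 17.18 in clone 2, against 16.82 in MOCK and 15.47 in WT. The tetraspanin Cd81 read 15.48 in clone 1 and 16.02 in clone 2, against 15.37 in MOCK and 14.08 in WT. For both genes the WT array alone stood far below the others, and after quantile normalization the differences were 0.64 and 0.54 log2 units (limma adjusted p = 0.601 and 0.671). The tetraspanin Cd9 differed by 0.03 as deposited and by -0.46 after quantile normalization, with overlapping groups.

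Of 31 listed integrin ligands 29 were measured, 14 of them above background on all arrays. As deposited 19 of the 29 were higher in the knockout mean, close to the 65.1% of all probe sets, and after quantile normalization 17, beside 48.3%. The median differences were 0.41 and 0.08 log2 units. By limma 0 passed on either scale, and 3 as deposited and 1 after quantile normalization had an unadjusted p under 0.05, beside 8.75% and 8.92% of all probe sets. Of the ligand genes, Thbs1 alone passed at an adjusted p under 0.05 under alternatives that keep all arrays. It was higher with mean signal above the median (limma adjusted p = 0.0484), where 196 of 11103 probe sets were called. With trended, robust eBayes (limma adjusted p = 0.0326) 340 of 22206 were called. Leaving out clone 1 sets clone 2 alone against the controls, and the Thbs1 difference was then 2.80 log2 units as deposited and 2.24 after quantile normalization. Postn, named after its values were seen, read 4.79 in clone 1 and 9.09 in clone 2, against 6.41 in MOCK and 4.91 in WT. It was below background in clone 1 and WT, and clone 1 lay below both controls. With all arrays the Postn difference was 1.28 log2 units as deposited and 1.07 after quantile normalization (limma adjusted p = 0.769 and 0.803). Without clone 1 it was 3.43 as deposited, which rests on clone 2 alone. After quantile normalization clone 2 was still the highest array, at 8.78, and clone 1 the lowest, at 4.83. Lamb1, likewise named afterwards, read 11.49 in clone 1 and 9.60 in clone 2, against 11.11 in MOCK and 10.36 in WT. After quantile normalization the differences of Lamb1 and Col3a1 without clone 1 were -1.65 and -1.57 log2 units. That of Fbln5 without clone 2 was -1.87, and each of these rests on a single knockout array. Fn1, which encodes fibronectin, the ligand of the alpha 5 beta 1 receptor, read 15.34 in clone 1 and 16.10 in clone 2, against 14.81 in MOCK and 14.39 in WT. Its difference was 1.12 log2 units as deposited (SE 0.41, limma adjusted p = 0.476) and 0.62 after quantile normalization, where the groups overlapped (limma adjusted p = 0.681). Col3a1, a fibrillar collagen chain, read 11.19 in clone 1 and 10.75 in clone 2, against 11.80 in MOCK and 11.79 in WT. Both clones were lower on both scales, by -0.83 log2 units as deposited and -1.29 after quantile normalization (limma adjusted p = 0.577 and 0.421). Thbs1, which encodes the matrix protein thrombospondin 1, read 10.76 in clone 1 and 12.68 in clone 2, against 9.24 in MOCK and 10.52 in WT (difference 1.84 log2 units, limma adjusted p = 0.420). The controls were 1.28 log2 units apart, and after quantile normalization clone 1 lay between them. Col4a2, a basement membrane collagen chain, read 6.31 in clone 1 and 5.55 in clone 2, against 6.43 in MOCK and 6.44 in WT. It was above the 75th percentile of the negative controls on 1 array. Fbln5, a matrix protein that binds alpha v integrins, read 6.56 in clone 1 and 8.94 in clone 2, against 8.71 in MOCK and 7.71 in WT, so the clones lay outside the controls on opposite sides as deposited. After quantile normalization clone 2, at 8.63, lay between MOCK at 8.75 and WT at 8.06.

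The enzymes that branch the N-glycans on integrins were measured beside them. Of 6 listed, 5 were measured, and 0 passed limma on either scale (0 had an unadjusted p under 0.05 as deposited and 1, Mgat5, after quantile normalization, unadjusted p = 0.00762, beside 8.75% and 8.92% of all probe sets). The Mgat5 difference was -0.71 log2 units as deposited (SE 0.37) and -1.11 after quantile normalization (limma adjusted p = 0.419). Mgat1, which starts the branching, read 7.71 in clone 1 and 8.58 in clone 2, against 8.29 in MOCK and 8.15 in WT. Mgat2, which starts the other arm, read 12.40 in clone 1 and 12.00 in clone 2, against 12.66 in MOCK and 12.13 in WT. After quantile normalization the differences of Mgat1 and Mgat2 were -0.48 and -0.67 log2 units (limma adjusted p = 0.710 and 0.597). On that scale both clones lay below both controls for 3 of the 5 enzymes, Mgat1, Mgat2 and Mgat5, beside 21.3% of all probe sets. Mgat5 is the targeted gene, and the gap for Mgat1 was 0.05 log2 units. As deposited they did so for 1, Mgat5, beside 11.7%, and for Mgat1 clone 2 was the highest array. The knockout mean was higher for 2 of the 5 as deposited and 1 after quantile normalization, beside 65.1% and 48.3% of all probe sets. Mgat4a, which adds the beta-1,4 branch, stayed within 5.26 and 5.39 on all arrays as deposited. It was above the 75th percentile of the negative controls on 0 arrays. Mgat3, which adds the bisecting residue, was below background on every array.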

How the data were processed

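Total RNA of 4 samples was hybridised to the Clariom S mouse array. The deposited values are log2 signals normalized by the authors with the Transcriptome Analysis Console, per the submitters' processing notes, a scale taken from their range. Not given in the sources used here are the normalization and summarisation methods, the software version and the annotation build. Of 28846 features, 6640 control features were left out and 22206 probe sets tested. Symbols came from the platform annotation (19572 probe sets with 1 symbol, 2634 with none), checked by Entrez identifier against the RefSeq gene table of GRCm38.p6, which changed 0 symbols. Background was read from 5222 features named as negative controls.

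The test was limma 3.58.1 (R 4.3.3), lmFit and eBayes, knockout minus control, with Benjamini-Hochberg adjustment over all probe sets. It was checked on simulated data with planted shifts larger than any difference of a member. That check does not show whether differences as small as those of the members could pass with 2 arrays per group. Quantile normalization ran over all probe sets. Differences between single arrays have no test. Group values are means ± SD, n = 2, and that number of arrays limits the precision. Members and lists were chosen with earlier results of these data known. Named list genes were those above background on all arrays, up to 4 per list by size of the quantile-normalized difference. Fn1, Mgat3, Itgae, Itgb2, Postn, Lamb1 and the markers were named in addition, after their values were seen.

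Alternatives were quantile normalization, median centring, filters on mean signal (above the median, or above the 25th percentile), trended and robust eBayes, and each array left out, also after quantile normalization.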

Additional observations from a re-analysis of the deposited data

How the results depend on the processing

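The count of integrin subunits past limma was 0 under all 13 alternatives, with the lowest adjusted p, 0.157, for Itga6. The count over all probe sets was 9 as deposited and 8 with median centring. It was 1 after quantile normalization, 196 and 125 with mean signal above the median or above the 25th percentile, and 340 with trended, robust eBayes. Leaving out 1 array gave 0 (without WT) to 529 (without clone 1), and after quantile normalization 1 without MOCK, 0 without WT, 804 without clone 1 and 250 without clone 2; a group left with 1 array is assumed to vary like the other. The median difference over the 9 subunits was 0.65 log2 units as deposited, 0.29 after quantile normalization and 0.51 with median centring. It ran from 0.57 to 0.71 with 1 array left out, and after quantile normalization it was 0.10 without MOCK, 0.55 without WT, 0.32 without clone 1 and 0.52 without clone 2. Filters left 6 and 8 of the 9, so no median is given for them.

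Of 113 member values under these alternatives 12 changed sign, in Itga3, Itgav and Itgb1, and the cause was not tested. Quantile normalization turned Itgav to -0.049 and Itgb1 to -0.020. With 1 array left out, Itga3 ran from -0.48 to 1.78 and Itgb1 from -0.22 to 1.09 as deposited. Itga3 was -0.29 without MOCK and -0.48 without clone 1, and -0.90 and -0.999 in the same order after quantile normalization. Itgb1 was -0.22 without WT, and after quantile normalization -0.14 without WT and -0.16 without clone 2. After quantile normalization Itgav was -0.10 without MOCK, -0.0042 without WT and -0.43 without clone 1. Itga5, Itga6 and Itgb5 stayed above 0 in all 13. The mean over a gene's probe sets was not run, since each measured subunit had 1. Signals near the negative-control median limit what can be said of Itga2, Itga4, Itgb3 and, in the controls, Itga5. No paired analysis was possible because the control titles carry no replicate number.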

Other observations

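Other genes with an integrin-derived name lay outside the lists and were chosen after their values were seen. Itgbl1, which encodes a secreted protein with repeats like those of beta integrins, read 4.90 in clone 1 and 9.51 in clone 2, against 6.11 in MOCK and 7.12 in WT. Clone 1 was below background and clone 2 was the highest of the 4 arrays, 4.60 log2 units above clone 1, and the difference between the group means did not pass limma (adjusted p = 0.913). Itgb3bp is a nuclear protein first named for binding the beta 3 chain. It read 9.97 in clone 1 and 10.30 in clone 2, against 9.35 in MOCK and 9.11 in WT. Both clones lay above both controls as deposited and after quantile normalization, beside 27.8% and 19.2% of all probe sets. The Itgb3bp difference was 0.90 log2 units as deposited (SE 0.38, limma adjusted p = 0.539) and 0.46 after quantile normalization (limma adjusted p = 0.679).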
